A study of Mus musculus with 9 samples.

Results

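Suprabasal cells of the hair bulb were compared with hair follicle stem cells of the bulge, the populations at opposite ends of the lineage that makes hair. The comparison used 5 of the 9 libraries of the series, 2 of suprabasal hair bulb (suprabasal HB) and 3 of hair follicle stem cells (HFSC), and was described over the 15153 autosomal protein-coding genes with enough counts to test, of 20409 in the files. The other 4 libraries, from the outer root sheath (ORS) and the basal hair bulb (basal HB), helped only to estimate the spread and to place levels. Back skin was taken on day 30 after birth, in anagen VI, when the hair is growing at its full rate, cells were isolated on a flow cytometer, and RNA was sequenced in bulk. The strain label of all samples is Lhx2-GFP (CD1), while the protocol for extraction speaks of K14-H2BGFP mice, and which cells carried GFP was not settled from the labels. K14-H2BGFP puts a green histone under the keratin 14 promoter, which is active in basal keratinocytes, and Lhx2-GFP reports a bulge and bulb transcription factor. The sort used P-cadherin, Sca-1, CD34, both integrins (α6 and β1) and GFP, and the gate that defined each population is not in the labels. The labels do not tell the libraries apart by sex. They also do not say how many animals were pooled or whether replicates came from separate animals. The p-values below therefore set a difference against the spread between libraries, estimated over all 9, which may not be the spread between animals.

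Stem cells of the bulge lie on a basement membrane and seed the outer root sheath and, through it, the bulb at the base of the follicle. Around the dermal papilla, basal bulb cells divide, and their suprabasal descendants commit to the concentric layers of the hair shaft and the inner root sheath, which fill with keratins, keratin-associated proteins and trichohyalin. WNT signalling through LEF1 acts in hair shaft precursors, BMP signalling acts in their differentiation, and melanocytes of the bulb pass pigment to the shaft.

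Libraries held 25098237 to 29902799 expected counts in HFSC and 45438637 to 50752545 in suprabasal HB, so the stem cells were sequenced less deeply. A count of 3, the limit that a count of 0 allows, was worth 0.1 to 0.12 CPM, counts scaled to the library total, in HFSC and 0.0591 to 0.066 CPM in suprabasal HB, for counting error only. Across genes, Pearson's r of log2 CPM was 0.992 to 0.993 within HFSC, 0.994 within suprabasal HB and 0.902 to 0.914 between them, where genes are not independent replicates. The libraries also differed in sex-linked RNA. Xist stood at 1188 to 1437 CPM in HFSC and 1.05 to 1.23 CPM in suprabasal HB, and the Y-linked gene Ddx3y at 0 to 0.0364 and 85.7 to 96.2 CPM. This is the pattern of female RNA in HFSC and male RNA in suprabasal HB, which no label states. Population and sex of the animals therefore cannot be told apart, and counts of genes are given for autosomes. The label of suprabasal HB also has to be read beside its melanocyte markers, 16 genes that summed to 19837 and 20339 CPM there, against 235 to 315 CPM in HFSC, 184 to 593 in ORS and 4252 to 4637 in basal HB. None of the 16 was at 0 in either population, and in bulk RNA fewer cells of a type and less RNA per cell cannot be told apart. The part of this melanocyte RNA in the results on other genes was not tested.

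**Figure D1:**
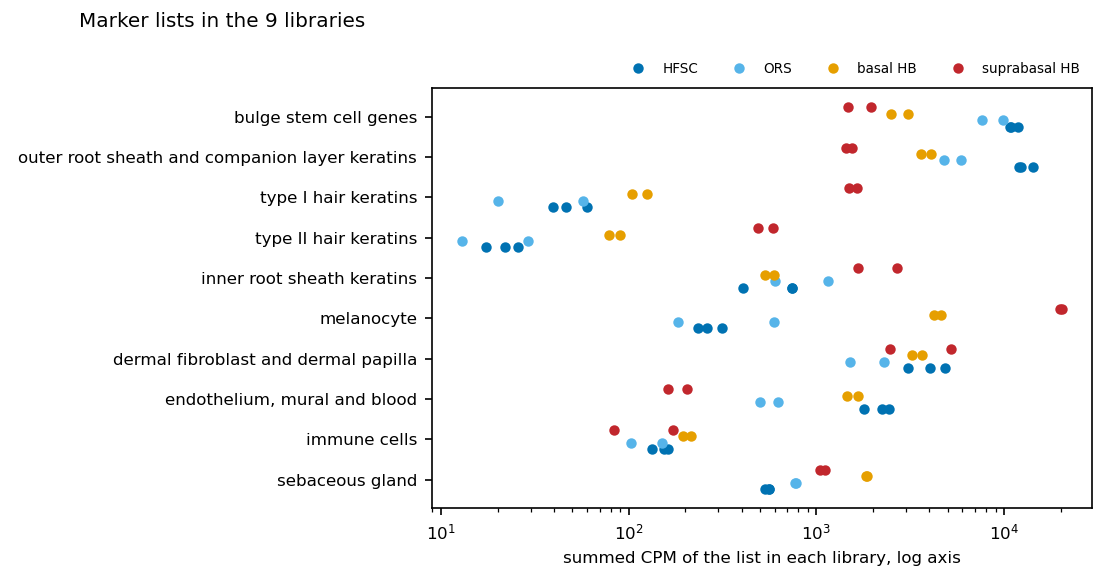
Summed CPM of marker lists (log horizontal axis) in each of the 9 libraries, 1 point a library, coloured by population. Melanocyte markers sum to 19837 and 20339 CPM in the 2 suprabasal HB libraries and to 315 CPM or less in HFSC, bulge genes show the reverse order, and the dermal and immune lists overlap.

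The other marker lists moved less. Dermal fibroblast and papilla markers summed to 2457 and 5201 CPM in suprabasal HB and 3091 to 4863 in HFSC, and 19 of 25 did not pass the test of edgeR at an adjusted p under 0.05, which 55.8% of all 15153 genes passed in either direction. Immune markers summed to 83.6 and 173 CPM against 133 to 162, and sebaceous gland markers to 1042 and 1115 against 533 to 561. The endothelial, mural and blood list summed to 161 and 204 CPM against 1798 to 2428 in HFSC. That sum was mostly Acta2 and Tagln, smooth muscle genes at 840 to 1356 and 784 to 871 CPM in HFSC. The mural gene Myh11, at 12.2 to 18.8 CPM in HFSC and 5.33 and 8.95 in suprabasal HB, did not pass the test (log2 fold change -1.09, SE 0.49, edgeR adjusted p = 0.091). The endothelial gene Pecam1 stood at 7.8 to 12.8 and 9.41 to 11.3 CPM. Of the 17 genes of that list, 1 rose, 3 fell and 13 did not pass. Besides Acta2 and Tagln, the endothelial gene Tek fell, by 4.59 on the log2 scale. Eng, also endothelial, was the gene that rose, by 1.07 (0.82 without suprabasal HB replicate 1).

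In edgeR's quasi-likelihood test, 4091 of the 15153 genes were higher in suprabasal HB (27.0%) and 4363 were lower (28.8%) at an adjusted p under 0.05. With at least a 2-fold difference these counts were 1653 (10.9%) and 2511 (16.6%), and with at least a 16-fold difference 252 (1.66%) and 411 (2.71%). The libraries of the populations did not overlap for 5250 genes that were higher (34.6%) and 5446 that were lower (35.9%). The median log2 fold change over all 15153 genes was -0.01. Because most genes were called, the count for each list below has to be read beside this background of 27.0% higher and 28.8% lower. Fold changes are suprabasal HB over HFSC throughout, and levels are CPM scaled by edgeR's TMM factors, which compare 1 gene between libraries and not genes with each other.

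**Figure D2:**
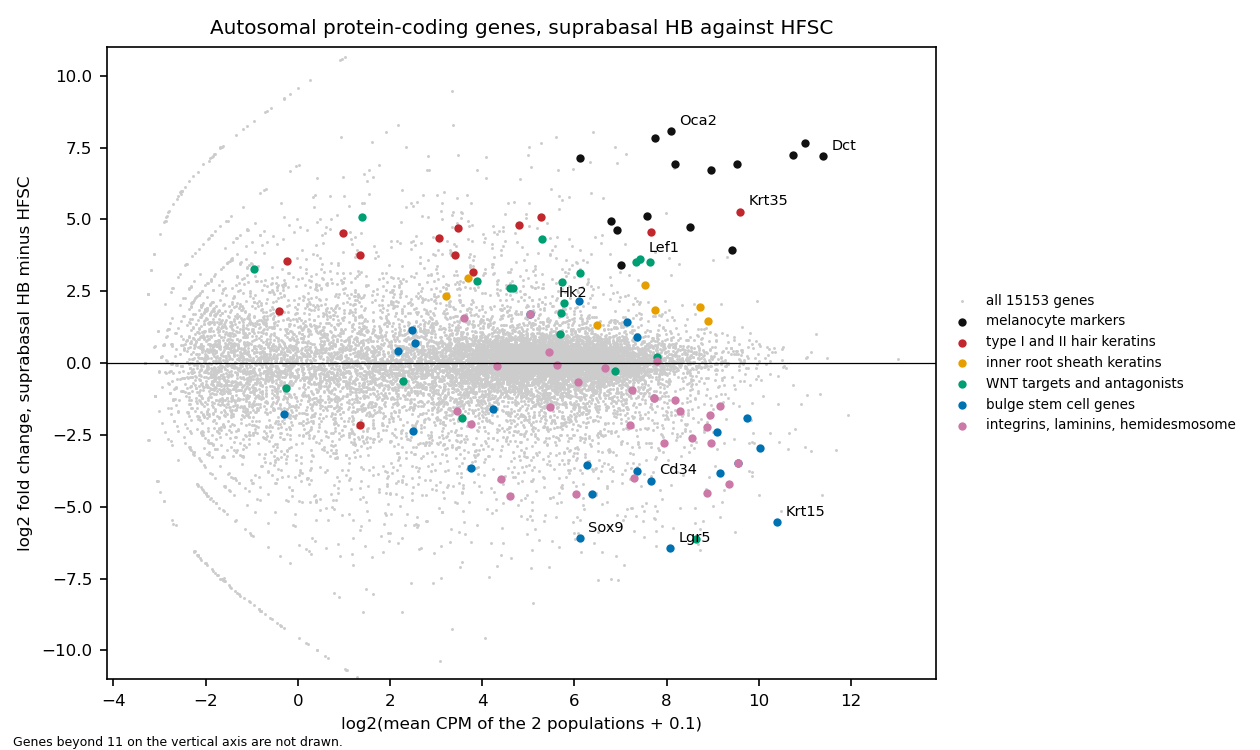
Log2 fold change, suprabasal HB minus HFSC, against mean level (log2 of CPM plus 0.1) for 15153 autosomal protein-coding genes, with 6 gene lists coloured. Melanocyte markers and most hair keratins lie above 0, most bulge genes and most integrins and laminins below 0, and the curved rows of grey points at the edges are genes with few or no counts in 1 population.

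Bulge genes were low in suprabasal HB, and the hair keratin gene among the 4 markers was high. Sox9, a transcription factor of the bulge and outer root sheath, lies on mm10 chromosome 11 (112782224 to 112787760, ENSMUSG00000000567). It had 152, 129 and 130 CPM in the HFSC libraries and 2.54 and 1.39 CPM in suprabasal HB. The groups lay far apart, and the fall was 68.8-fold (log2 -6.10, SE 0.24, edgeR adjusted p = 6.4e-07). Cd34, a surface sialomucin used in the sort (ENSMUSG00000016494, chromosome 1, 194938819 to 194961279), was measured at 412, 381 and 344 CPM in HFSC and 26.1 and 18.4 CPM in suprabasal HB. Its fall was 17.0-fold (SE 0.20 on the log2 scale, edgeR adjusted p = 1.4e-06), in a gene that the gates used, so it is a check of the sort and no finding. Krt35, a type I keratin of the hair cortex and cuticle (ENSMUSG00000048013, chromosome 11, 100092193 to 100096241), ran the other way, with 29.6, 50.1 and 37.4 CPM in HFSC and 1431 and 1581 CPM in suprabasal HB. It rose 38.6-fold (log2 5.27, SE 0.52, edgeR adjusted p = 4.5e-05), again with no overlap. Hk2, the hexokinase that opens glycolysis (ENSMUSG00000000628, chromosome 6, 82725025 to 82774454), rose 4.24-fold, from 15.6, 17.4 and 17.9 CPM to 71.2 and 72.4 CPM (log2 2.08, SE 0.09, edgeR adjusted p = 7.3e-07).

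All 6 sort markers were lower in suprabasal HB. Lhx2, which keeps bulge cells quiescent and drives the Lhx2-GFP reporter, stood at 1274 to 1422 CPM in HFSC and at 476 and 235 CPM in suprabasal HB (log2 -1.92, SE 0.28, and -2.51 without suprabasal HB replicate 1). The integrin genes Itga6 and Itgb1 fell by 1.23 and 1.51 on the log2 scale, and Cdh3, which encodes P-cadherin, by 1.34. Ly6a, the gene of Sca-1, was low in both populations, at 15.7 to 34.1 and 9.87 to 12.7 CPM, and its call (log2 -1.09, edgeR adjusted p = 0.027) was lost on leaving out any of 4 libraries, with -1.05 without HFSC replicate 1, -0.65 without HFSC replicate 3, -1.27 without suprabasal HB replicate 1 and -0.81 without suprabasal HB replicate 2. Ly6a also shares 37.4% of its 25-base words with other transcripts.

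Of 23 bulge stem cell genes, 16 fell, 4 rose and 3 did not pass, with a median log2 fold change of -2.39. The sort markers Cd34 and Lhx2 are among those that fell. Lgr5, a receptor for R-spondins that marks cycling follicle stem cells, was at 540, 542 and 510 CPM in HFSC and at 7.46 and 4.68 CPM in suprabasal HB, a fall of 6.44 on the log2 scale (SE 0.34). Krt15, the keratin by which the bulge is most often recognised, went from 2840, 2687 and 2379 CPM to 52.1 and 62.3 CPM (log2 -5.53, SE 0.27). In both genes every suprabasal library was far below every HFSC library. Tcf7l1, a TCF repressor of stem cells, fell by 4.56, Bmp6, a ligand that keeps the bulge quiescent, by 3.66, and the hedgehog co-receptor gene Gas1 by 3.56. The 4 that rose were Hopx, Npnt, Id2 and Id3. Hopx, a homeodomain-only cofactor, rose by 2.17 (95.3 and 128 CPM against 17.0 to 31.4) and Id2, an inhibitor of basic helix-loop-helix factors, by 1.42. Nfatc1, a quiescence factor at 3.01 to 5.45 and 6.6 to 7.5 CPM, did not pass (log2 0.70, SE 0.36).

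Keratins of the outer root sheath and companion layer were mostly lower. Of 9 tested, 6 fell and 1 rose, and the list took 1.11% to 1.28% of counts in HFSC and 0.150% and 0.152% in suprabasal HB. Krt5, the type II keratin of basal keratinocytes, was at 5513, 6251 and 5669 CPM in HFSC and at 710 and 720 CPM in suprabasal HB (log2 -3.02, SE 0.17). Its partner Krt14 fell by 3.78, and Krt6a, an outer root sheath and companion layer keratin, by 6.58, from 83 to 212 CPM to 2.02 and 0.873 CPM (-7.32 without suprabasal HB replicate 1). Krt6a shares 63.7% of its 25-base words with other transcripts and Krt14 34.2%, so reads could have been split among near-identical genes. Krt75, which marks the companion layer, was the exception and rose by 1.01 (193 and 250 CPM against 95.0 to 122), and it was higher still in basal HB, at a mean of 1095 CPM.

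Hair shaft keratins rose in nearly every case. Of 8 type I hair keratins tested 7 rose, with a median log2 fold change of 3.66, and all 5 tested type II hair keratins rose, with a median of 4.69. Krt85, another type II hair keratin of the list, is not in the files, so the counts, shares and order of levels given here leave it out. Together the other genes of both lists took 0.208% and 0.220% of counts in suprabasal HB and 0.00523% to 0.0077% in HFSC. Krt86 rose 33.8-fold, from 1.96, 2.53 and 2.18 CPM to 67.9 and 81.8 CPM (log2 5.08, SE 0.35, edgeR adjusted p = 7e-06). Krt81 rose 27.8-fold, Krt82, a cuticle keratin, 25.9-fold, and Krt36 20.5-fold, each with no overlap. The gene listed as Krt83 in the files, an identifier that GENCODE M21 names Krt87, rose 23.6-fold from 13.4, 19.0 and 16.5 CPM to 350 and 420 CPM. Krt32 was the exception, at 3.85 to 4.25 CPM in HFSC and 1.04 and 0.761 CPM in suprabasal HB (log2 -2.15, SE 0.26). On the deposited TPM scale, which divides by transcript length, Krt35 led in suprabasal HB with 1406 and 1362 TPM, followed by Krt83 with 330 and 347 and Krt86 with 59.6 and 62.8. Krt81 stood at 43.5 and 48.8 TPM and Krt31 at 28.2 and 23.2, while Krt36, with 16.8 and 13.8, and Krt82, with 15.8 and 16.6, overlapped. Krt83, Krt86 and Krt81 share 58.1%, 52.2% and 47.1% of their 25-base words with other transcripts, Krt34, Krt31, Krt33b and Krt33a 45%, 43.5%, 40.7% and 33.7%, so their separate values are uncertain.

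**Figure D3:**
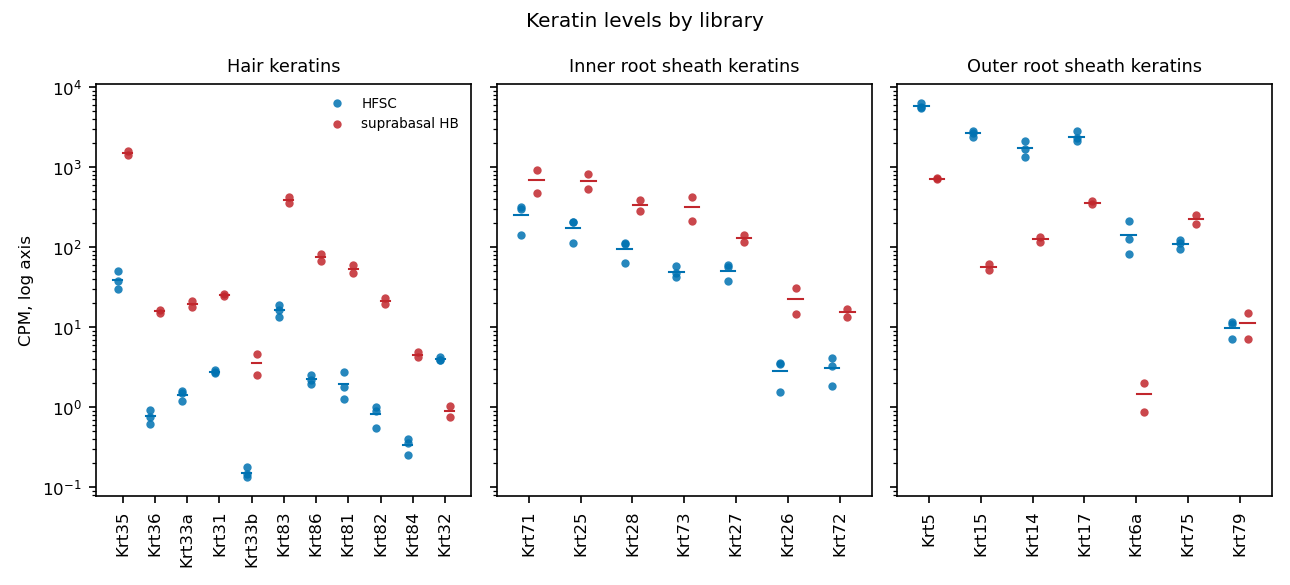
CPM of keratin genes (log axis) in the 3 HFSC and 2 suprabasal HB libraries, 1 point a library, grouped as hair, inner root sheath, and outer root sheath and companion layer keratins. Krt35 and Krt83 are higher in suprabasal HB, where they reach 1581 and 420 CPM, Krt5 and Krt15 are higher in HFSC, and Krt32 and Krt75 run against the rest of their groups. Heights compare 1 gene between libraries and not genes with each other.

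The inner root sheath moulds the growing hair, and its keratins also rose. All 7 autosomal protein-coding members tested passed, by 1.34 to 2.97 on the log2 scale (median 1.95). Krt25 went from 114, 205 and 203 CPM to 807 and 533 CPM (log2 1.95, SE 0.33). Krt73 rose from 41.7, 58.3 and 47.0 CPM to 427 and 209 CPM (2.70, SE 0.56, and 2.10 without suprabasal HB replicate 1), and Krt26, a late inner root sheath keratin, by 2.97. The suprabasal libraries differed here, since the 8 inner root sheath keratins summed to 2701 CPM in replicate 1 and 1668 CPM in replicate 2, against 408 to 740 CPM in HFSC. Their share of counts was 0.282% and 0.164% against 0.0376% to 0.0684%.

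Keratin-associated proteins, which crosslink hair keratin filaments, had few counts. Of 56 genes in the files, 48 had too few counts to test, and the 56 summed to 66.2 and 169 CPM in suprabasal HB, 14 to 15 in HFSC and 116 and 131 in basal HB. Of the 8 that passed the filter on low counts, 7 were higher and 1 lower. Krtap8-1, a high-glycine-tyrosine protein, was at 7.0, 6.2 and 6.72 CPM in HFSC and at 31.6 and 91.3 CPM in suprabasal HB (log2 3.21, SE 0.37, and 2.36 without suprabasal HB replicate 2). Replicate 2 held the larger value for Krtap7-1, Krtap15 and Krtap14 as well, which rose by 3.21, 3.07 and 3.03 and, without that replicate, by 2.43, 2.29 and 2.36. Krtap17-1 was the member that was lower, at 0.364 to 0.886 and 0.0224 to 0.0377 CPM.

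Promoter sequence was read for the lists that moved together, and the windows of Krt31, Krt33b and Krt25 are shown because they hold the motifs counted. RefSeq windows (GRCm38.p6) run from 250 bases before to 50 bases after each start, a gene can have more than 1 window, and motifs were searched on both strands. TATAAA, the TATA box, was in 4 of 6 windows of type I hair keratins (66.7%), in 4 of 7 of keratin-associated proteins (57.1%) and in 7 of 7 of inner root sheath keratins (100%), beside 13.6% of all 32851 windows. TCF/LEF words (CTTTGAA as well as CTTTGAT, the variant CTTTGTA and also CTTTGTT) were in 5 of 6 windows of type I hair keratins (83.3%), 5 of 7 of keratin-associated proteins (71.4%) and 2 of 7 of inner root sheath keratins (28.6%), beside 16.9% of all windows. Krt32 and Krtap17-1, the members of their lists that were lower in suprabasal HB, each held both TATAAA and a TCF/LEF word. The windows of WNT targets and antagonists, searched after the values were seen, held a TCF/LEF word in 3 of 18 (16.7%). Of 2 windows of type II hair keratins 1 held TATAAA and none a TCF/LEF word, and integrin, laminin and hemidesmosome windows held TATAAA in 1 of 26 (3.85%) and no TCF/LEF word. A match is letters only and no evidence of binding, and members of a keratin cluster share ancestry, so they are not independent. The 250 bases before the start follow, 5′ to 3′ on the gene's strand, for Krt31 (chr11:100050552-100050801, minus strand), Krt33b (chr11:100029869-100030118, minus) and Krt25 (chr11:99322952-99323201, minus), with TATAAA and TCF/LEF words of either strand in capitals.
Krt31: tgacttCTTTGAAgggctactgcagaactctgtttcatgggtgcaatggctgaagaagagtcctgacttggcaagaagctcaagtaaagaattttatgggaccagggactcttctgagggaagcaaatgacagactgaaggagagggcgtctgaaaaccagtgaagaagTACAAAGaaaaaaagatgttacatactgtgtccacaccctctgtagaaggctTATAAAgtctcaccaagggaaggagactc
Krt33b: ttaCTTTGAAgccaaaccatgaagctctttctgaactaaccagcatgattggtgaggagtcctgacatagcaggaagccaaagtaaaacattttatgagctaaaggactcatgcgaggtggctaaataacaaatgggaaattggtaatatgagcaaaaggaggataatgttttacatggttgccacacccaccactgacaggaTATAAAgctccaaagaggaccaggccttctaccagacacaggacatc
Krt25: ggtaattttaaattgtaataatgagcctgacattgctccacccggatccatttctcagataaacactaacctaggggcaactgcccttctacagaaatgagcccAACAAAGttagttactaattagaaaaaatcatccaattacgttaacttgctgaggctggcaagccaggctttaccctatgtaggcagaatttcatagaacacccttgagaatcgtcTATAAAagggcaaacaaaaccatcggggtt
TATAAA began 29 bases before the start in Krt31, 47 in Krt33b and 30 in Krt25, and a CTTTGAA lay 244 and 247 bases before it in the 2 hair keratins. In reverse complement, Krt31 also had a TCF/LEF word as TACAAAG, 81 bases before its start, and Krt25 as AACAAAG, 146 bases before its start.

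Trichohyalin, which fills the inner root sheath and the medulla and is hardened by deiminases and transglutaminases, was higher with part of that machinery. Of 12 genes, 5 rose, 4 fell and 3 did not pass, and only 2 fell without HFSC replicate 2 or without suprabasal HB replicate 2. Tchh was at 122, 163 and 171 CPM in HFSC and at 628 and 622 CPM in suprabasal HB (log2 2.04, SE 0.24), with a mean of 4005 CPM in basal HB. The transglutaminase gene Tgm3 rose by 2.76 and the deiminase genes Padi2 and Padi1 by 3.12 and 1.74. Padi2 was 3.94 without HFSC replicate 1. Casp14, a caspase of cornification, fell by 5.52 (21.5 to 25.6 CPM against 0.716 and 0.291, and -6.33 without suprabasal HB replicate 1) and Tgm2 by 2.81. Among 16 other hair shaft proteins 9 rose and 2 fell. Dsg4, the desmosomal cadherin of the hair shaft, was at 2.03, 3.06 and 2.94 CPM in HFSC and 78.0 and 61.3 CPM in suprabasal HB (log2 4.71, SE 0.50), and the cuticle receptor gene Gprc5d rose by 3.95. Selenbp1 rose by 4.46, with 66.5% of its words shared with other transcripts.

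Transcription factors that set fates in the bulb were mostly higher, 19 of 27 tested against 4 lower, with a median of 1.31. Without HFSC replicate 1, 2 or 3 the count lower was 2. Lef1, which pairs with β-catenin in hair precursors, was at 22.6, 25.4 and 29.6 CPM in HFSC and at 311 and 329 CPM in suprabasal HB (log2 3.63, SE 0.23, edgeR adjusted p = 4.6e-06). Sox21, a factor of the hair shaft cuticle, went from 7.87, 9.79 and 8.29 CPM to 132 and 130 CPM (log2 3.92, SE 0.22). Neither gene overlapped between the populations, and neither was confined to suprabasal HB, since basal HB held means of 254 and 111 CPM. Foxq1, which acts in the medulla, rose by 3.52 (66.1% of its words shared) and Prdm1 by 2.92. The homeobox genes Msx1, Msx2, Dlx3 and Dlx4 rose by 2.47, 2.35, 1.33 and 1.97, and Hoxc13 and Foxn1, which control hair keratin genes, by 1.15 and 1.31. Vdr, the vitamin D receptor gene, fell most, from 2343, 1693 and 1921 CPM to 72.4 and 90.2 CPM (log2 -4.61, SE 0.29), followed by the glucocorticoid receptor gene Nr3c1 (-1.49). Gata3, an inner root sheath factor, stood at 93.6 to 116 and 54.8 to 99.7 CPM and did not pass (log2 -0.44, SE 0.22, edgeR adjusted p = 0.13). The falls of Cux1 (-0.52) and Dlx1 (-0.36) were near the threshold, and each was lost when any of several libraries was left out, down to -0.30 and -0.07 without suprabasal HB replicate 2.

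WNT target and feedback genes were mostly higher, while ligands and receptors split. Of 20 targets and antagonists tested 14 rose and 2 fell, with a median of 2.62, and the count that fell was 4 without suprabasal HB replicate 1 and 1 without any other of the 5 libraries. Axin2, a target that feeds back on β-catenin, was at 12.8, 13.4 and 16.3 CPM in HFSC and at 122 and 129 CPM in suprabasal HB, an 8.88-fold rise (log2 3.15, SE 0.15, edgeR adjusted p = 1.2e-06). Nkd1, another feedback inhibitor, rose by 4.31 (3.16 to 4.39 CPM against 70.6 and 77.8), Apcdd1 by 3.53, and the target Sp5 by 5.08 from levels of 0.266 CPM or less (5.82 without HFSC replicate 2). Sfrp1, which encodes a secreted WNT antagonist, was the large exception, at 775, 794 and 769 CPM in HFSC and 10.9 and 11.2 CPM in suprabasal HB (log2 -6.14, SE 0.34). The fall of Dkk3 (-0.26) was lost without any of the 5 libraries, at -0.13 to -0.26. Of 22 ligand and receptor genes 8 rose and 11 fell. Among ligands, Wnt5a rose by 3.16 (21.6 to 29.2 CPM against 223 and 236), Wnt10b by 3.08 and Wnt3 by 2.80, and Wnt5b fell by 3.21. Among receptors, Fzd10 rose by 2.70 and Fzd1 and Fzd2 fell by 2.30 and 1.65, as did Lgr5.

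**Figure D4:**
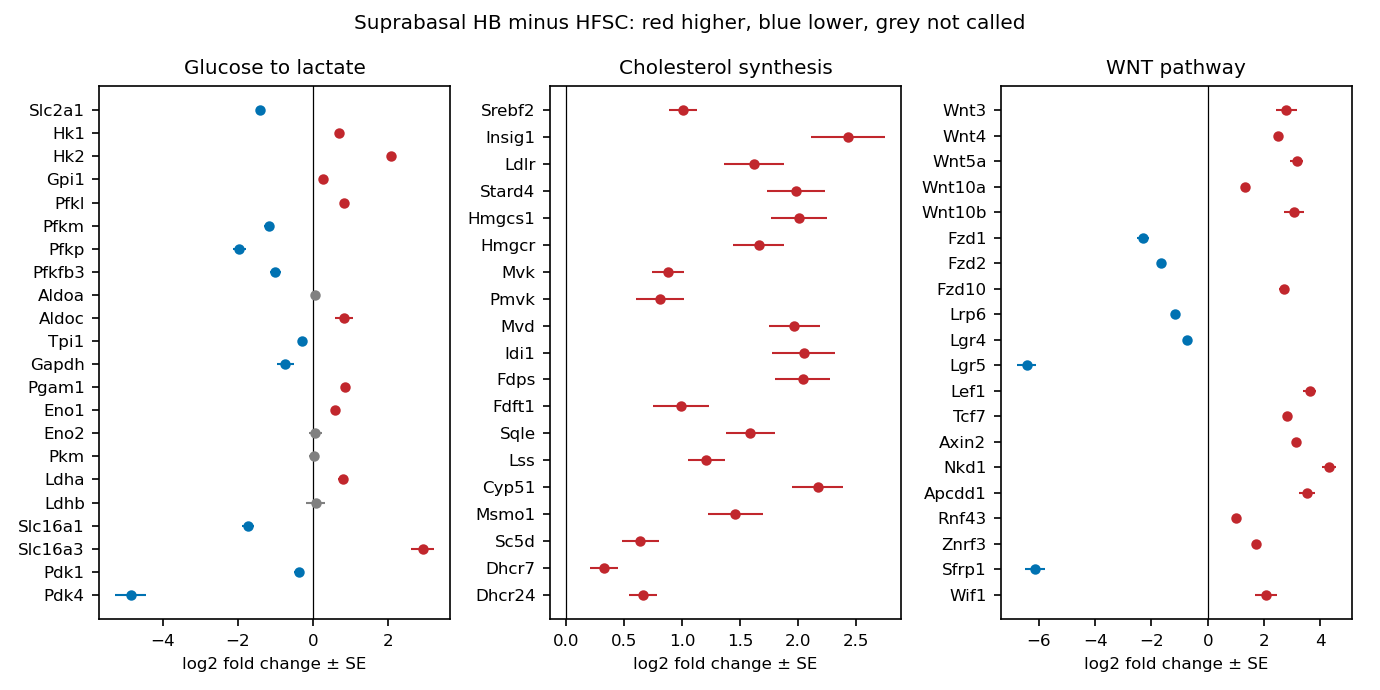
Log2 fold change, suprabasal HB minus HFSC, with its standard error, for genes of glycolysis, cholesterol synthesis and the WNT pathway, in red where the gene was higher, in blue where it was lower and in grey where it did not pass the test. All cholesterol genes lie above 0, glycolytic genes lie on both sides, and WNT targets such as Axin2 and Lef1 lie opposite Sfrp1 and Lgr5.

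Of 30 BMP and TGF-beta genes, 12 rose and 13 fell, with a median of -0.14. The ligand genes Bmp2 and Bmp4 rose by 2.85 and 2.75, Bmp2 from 5.44, 4.03 and 5.13 CPM to 32.1 and 38.3 CPM, while Bmp6 fell. Feedback and target genes Bambi (2.66), Id2 (1.42) and Id3 (0.90) rose. Inhbb, which encodes an activin subunit, was at 221, 192 and 162 CPM in HFSC and 1.96 and 2.01 CPM in suprabasal HB (log2 -6.59, SE 0.17, edgeR adjusted p = 2.4e-07), and the BMP antagonist gene Grem1 fell by 3.88. The receptor gene Bmpr1b fell by 5.28 from 3.41 to 3.77 CPM (-7.18 and -4.45 without suprabasal HB replicates 1 and 2), while Bmpr2 did not pass (0.09, SE 0.12).

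In the NOTCH pathway 7 of 21 genes rose, 5 fell and 9 did not pass, near the 27.0% higher and 28.8% lower of all genes. The ligand genes Dll1 and Jag2 fell by 2.22 and 1.04 and the modifier Lfng by 2.10, while Jag1 did not pass (0.30, SE 0.12, edgeR adjusted p = 0.058). The target genes Hey2 and Heyl rose by 3.85 and 1.80, Hey2 from 0.254 to 0.487 CPM to 6.37 and 5.28 CPM. In the hedgehog pathway 5 of 14 rose and 7 fell. Shh, the ligand gene, was at 4.79, 7.4 and 10.8 CPM in HFSC and 46.8 and 43.0 CPM in suprabasal HB (log2 2.55, SE 0.42), with 26.5% of its words shared. The effector and target Gli1 fell by 1.41 (211 to 287 CPM against 101 and 85.9), as did Gli2 (1.13) and Gas1, and Gli3, a further effector gene, rose by 1.04.

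Of 29 growth factor genes 12 fell, beside 28.8% of all genes, and 7 rose, near the 27.0% of all genes. Fgf5, whose protein ends hair growth, was at 254, 219 and 241 CPM in HFSC and 3.71 and 8.46 CPM in suprabasal HB (log2 -5.30, SE 0.46, and -5.89 without suprabasal HB replicate 2). Igfbp3 and Igfbp4, which encode binding proteins of insulin-like growth factors, fell by 5.05 and 3.97. Kitl, the ligand that melanocytes need, went from 44.5, 58.5 and 50.3 CPM to 499 and 621 CPM (log2 3.45, SE 0.37), and was higher still in basal HB, at a mean of 1364 CPM. Its receptor gene Kit rose by 5.13, from 6.85 to 12.7 CPM to 418 and 320 CPM. Kit is also a melanocyte marker and stood with the other markers of that list, and its part from keratinocytes was not tested.

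Cell division genes were modestly higher in suprabasal HB. Of 35 DNA replication genes 25 rose and none fell, with a median of 0.49, and of 32 mitosis genes 26 rose and none fell, with a median of 0.46. The direction held for every called member, but the sizes were small, at most 0.91. Pcna, the sliding clamp of DNA polymerase, was at 117, 174 and 149 CPM in HFSC and 251 and 280 CPM in suprabasal HB (log2 0.86, SE 0.16). Mki67, the proliferation antigen, was at 308, 415 and 451 CPM and at 702 and 671 CPM (log2 0.81, SE 0.15), and Aurkb and Bub1, kinases of chromosome segregation, rose by 0.74 and 0.83. The helicase gene Mcm6 (160 to 222 against 199 and 209 CPM) and Cdk1 (73.0 to 97.5 against 90.1 and 107 CPM) overlapped and did not pass. Both lists summed higher in ORS, where replication genes gave 3982 and 4169 CPM and mitosis genes 5298 and 5704 CPM, than in suprabasal HB, where they gave 3194 and 3211 and 3362 and 3601 CPM. In basal HB both sums were lower than in suprabasal HB, at 2029 and 2096 CPM for replication and 2997 and 3055 CPM for mitosis.

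Of 19 cyclins and inhibitors, 8 rose, 2 fell and 9 did not pass. Ccne1 and Ccne2, cyclins of entry into S phase, rose by 1.09 and 1.43, and Cdkn1a, the p21 inhibitor gene, rose by 1.96 from 28.8, 38.3 and 36.9 CPM to 124 and 146 CPM. Cdkn1b, the p27 gene, stood at 140 to 163 and 137 to 148 CPM and did not pass (log2 -0.08, SE 0.09). Btg2, an antiproliferative early response gene, fell by 2.86, whereas its relative Btg1 rose by 1.06. Ribosome biogenesis genes, which build the protein synthesis machinery, rose in 28 of 29 cases, with a median of 0.71. The 30 genes of the list summed to 4996 and 6020 CPM in suprabasal HB and 3103 to 3652 in HFSC. In ORS the sums were as high, at 5458 and 5484 CPM, and in basal HB they were 3795 and 4111 CPM. Mycn, a growth-promoting transcription factor gene, rose the most, from 11.4, 15.5 and 13.2 CPM to 76.8 and 101 CPM (log2 2.74, SE 0.16), and Polr1b, a polymerase I subunit gene, rose by 1.22. The exception, Tcof1 (-0.39), lost its call without suprabasal HB replicate 2 (-0.30).

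Promoters of Mcm5 and Mki67 are shown as examples of the division lists, since they hold the words that were counted. E2F words (TTCCCGC as well as TTGGCGC, the variant TTCGCGC and also TTGCCGC) were in 23 of 33 windows of DNA replication genes (69.7%) and 5 of 30 of mitosis genes (16.7%), beside 9.57% of all windows. The cell cycle homology region (CHR, TTTGAA or TTTAAA, of which the former lies within the TCF/LEF word CTTTGAA) was in 7 of 33 (21.2%) and 26 of 30 (86.7%), beside 27.6%. CCAAT was in 20 of 33 (60.6%) and 23 of 30 (76.7%), beside 37.4%. The 250 bases before the start follow for Mcm5, a helicase subunit gene (chr8:75109259-75109508, plus strand), and for Mki67 (chr7:135716380-135716629, minus strand), with E2F words, CHR and CCAAT of either strand in capitals.
Mcm5: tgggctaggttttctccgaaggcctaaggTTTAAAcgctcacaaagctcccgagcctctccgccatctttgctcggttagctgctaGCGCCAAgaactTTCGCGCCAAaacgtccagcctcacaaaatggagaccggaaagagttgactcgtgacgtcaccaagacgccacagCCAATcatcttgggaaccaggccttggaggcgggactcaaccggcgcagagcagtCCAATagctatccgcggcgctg
Mki67: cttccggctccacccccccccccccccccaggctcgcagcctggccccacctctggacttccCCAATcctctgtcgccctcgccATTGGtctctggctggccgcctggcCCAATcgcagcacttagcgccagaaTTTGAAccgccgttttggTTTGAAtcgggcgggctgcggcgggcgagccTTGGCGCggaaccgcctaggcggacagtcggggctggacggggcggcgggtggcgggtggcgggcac
In Mcm5 the E2F words began 164, 152 and 149 bases before the start, of which the latter pair overlap, CHR 221 and CCAAT 77 and 22 bases before it. In Mki67 the CHR words began 116 and 98 bases before the start, CCAAT 188, 166 and 141, and an E2F word 67 bases before it.

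Central metabolism moved gene by gene. Of 22 glycolysis and lactate genes 9 rose and 9 fell, with a median of 0.07. Hk2 and Slc16a3, which encode the entry enzyme and a lactate exporter, rose by 2.08 and 2.93, the exporter from 1.05, 0.797 and 1.45 CPM to 9.86 and 7.09 CPM. Pgam1 and Ldha rose by 0.86 and 0.80, with 37.5% and 24.1% of their words shared. The glucose transporter gene Slc2a1 fell by 1.40, from 71.8, 72.5 and 69.1 CPM to 27.1 and 26.7 CPM, the lactate transporter gene Slc16a1 by 1.74, and Pfkp by 1.96. Pdk4, which holds pyruvate back from mitochondria, fell by 4.86 (31.2 to 50.2 CPM against 0.999 and 1.92). Pkm, the pyruvate kinase gene, stood at 572 to 576 and 532 to 629 CPM and did not pass (log2 0.02, SE 0.11, with 38% of words shared). Nuclear genes of oxidative phosphorylation were slightly higher, 11 of 29 with none lower (median 0.19), led by the complex III gene Uqcrfs1 (0.90), and 18 did not pass. The count higher ran from 7 to 16 over the alternative analyses, and the count lower from 0 to 2. Transcripts encoded in mitochondria made up 4.36% of counts in each suprabasal HB library, against 2.32% to 2.89% in HFSC.

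Every gene of the cholesterol synthesis list was higher. All 19 rose, by 0.33 to 2.43, with a median of 1.59, and they summed to 3926 and 3198 CPM in suprabasal HB, 1205 to 1412 in HFSC and 3547 and 3688 in basal HB. Insig1, a sterol sensor partner, rose by 2.43 (SE 0.32), from 30.6, 41.2 and 35.9 CPM to 240 and 146 CPM. The enzyme genes Cyp51, Idi1 and Fdps rose by 2.17, 2.05 and 2.04, and Hmgcs1, which makes the precursor of mevalonate, went from 105, 157 and 125 CPM to 533 and 509 CPM (log2 2.01, SE 0.24). Dhcr7, a late enzyme gene of the chain, had the smallest difference, at 93.3 to 99.7 and 103 to 138 CPM (0.33, SE 0.12, edgeR adjusted p = 0.044). Over the alternative analyses between 15 and 19 of the 19 were called higher and none lower. The Hmgcs1 promoter is shown for its sterol response core (TCACNCCAC), which was found in 1 of 15 windows of the list (6.67%) and 1.24% of all windows, and which was searched after the values were seen. Its 250 bases before the start (chr13:119690101-119690350, plus strand) follow, with the core, 137 bases before the start, in capitals.
Hmgcs1: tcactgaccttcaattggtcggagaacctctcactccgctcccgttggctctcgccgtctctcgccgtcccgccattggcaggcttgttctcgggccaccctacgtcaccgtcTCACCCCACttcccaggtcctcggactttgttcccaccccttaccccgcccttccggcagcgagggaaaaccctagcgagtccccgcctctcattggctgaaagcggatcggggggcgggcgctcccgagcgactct

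Amino acid transporters moved in both directions. Of 21 genes of amino acid transport and polyamine synthesis 8 rose and 11 fell. Slc7a5, the large neutral amino acid carrier gene, was at 78.1, 69.7 and 90.2 CPM in HFSC and 910 and 986 CPM in suprabasal HB (log2 3.58, SE 0.13, edgeR adjusted p = 5.5e-07), and Slc38a1, a glutamine carrier gene, went from 1.81, 3.15 and 2.33 CPM to 114 and 82.8 CPM (log2 5.35, SE 0.24). Odc1, the rate-limiting enzyme gene of polyamine synthesis, rose by 3.68, from 68.2, 109 and 97.9 CPM to 1004 and 1348 CPM, with 34.1% of its words shared. Slc1a3, a glutamate carrier gene, was at 573, 573 and 515 CPM in HFSC and at 10.3 CPM in both suprabasal libraries (log2 -5.75, SE 0.31), and Slc38a4 and Slc1a4 fell by 4.93 and 3.78. Slc3a2, the heavy chain that pairs with Slc7a5, fell by 1.41, from 1885 to 2152 CPM to 728 and 762 CPM.

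Genes that anchor cells to the basement membrane were lower. Of 30 integrin, laminin and hemidesmosome genes 23 fell and 2 rose, with a median of -1.66. Those that fell include Itga6 and Itgb1, whose proteins the sort used. Lamb3, a chain of an epithelial laminin, was at 129, 120 and 130 CPM in HFSC and 6.5 and 4.1 CPM in suprabasal HB (log2 -4.57, SE 0.23), and Itgb6, an integrin that activates TGF-beta, fell by 4.62. The collagen IV genes Col4a1 and Col4a2 fell by 4.20 and 4.52, Col4a1 from 1278, 1036 and 1432 CPM to 83.8 and 51.7 CPM. Col17a1, a hemidesmosome collagen gene of stem cells, fell from 1279 to 1540 CPM to 107 and 137 CPM. The 2 that rose were Npnt, an integrin ligand gene (1.69), and Nid2 (1.57), which lost its call without suprabasal HB replicate 1 (0.94). Plec, a plakin gene of hemidesmosomes, stood at 172 to 239 and 219 to 236 CPM and did not pass (log2 0.08, SE 0.15).

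Desmosome and adherens junction genes were more often lower. Of 22, 13 fell, among them the sort marker Cdh3, and 5 rose, with a median of -0.42. Pkp3 fell by 1.40 and Cdh1, which encodes E-cadherin, by 1.14 (307 to 347 CPM against 186 and 113), while Dsg4 and Dsc1, which encode desmosomal cadherins, rose by 4.71 and 1.80. Epidermal differentiation genes summed to 245 to 316 CPM in HFSC and 158 and 123 CPM in suprabasal HB. Of 19 tested 9 fell, among them Sbsn (-3.04) and Klk5 (-2.74), and 2 rose, Krt2 and Lor. Without suprabasal HB replicate 2 the count that fell was 5. Krt2 was at 0.109 to 0.218 CPM in HFSC and 3.24 and 1.05 CPM in suprabasal HB (log2 3.78, and 2.76 and 4.48 without suprabasal HB replicates 1 and 2). Early response and heat shock genes, which tissue dissociation can also induce, fell in 17 of 25 cases and rose in 4, with a median of -1.48. Egr1 was at 1004, 900 and 944 CPM in HFSC and 247 and 99 CPM in suprabasal HB (log2 -2.46, SE 0.33, and -3.26 and -1.84 without suprabasal HB replicates 1 and 2), Atf3 and Socs3 fell by 2.77 and 2.74, and Egr3 and Fosl2 rose by 1.21 and 1.11. The list summed to 3677 and 2460 CPM in suprabasal HB and 6444 to 7895 in HFSC.

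**Figure D5:**
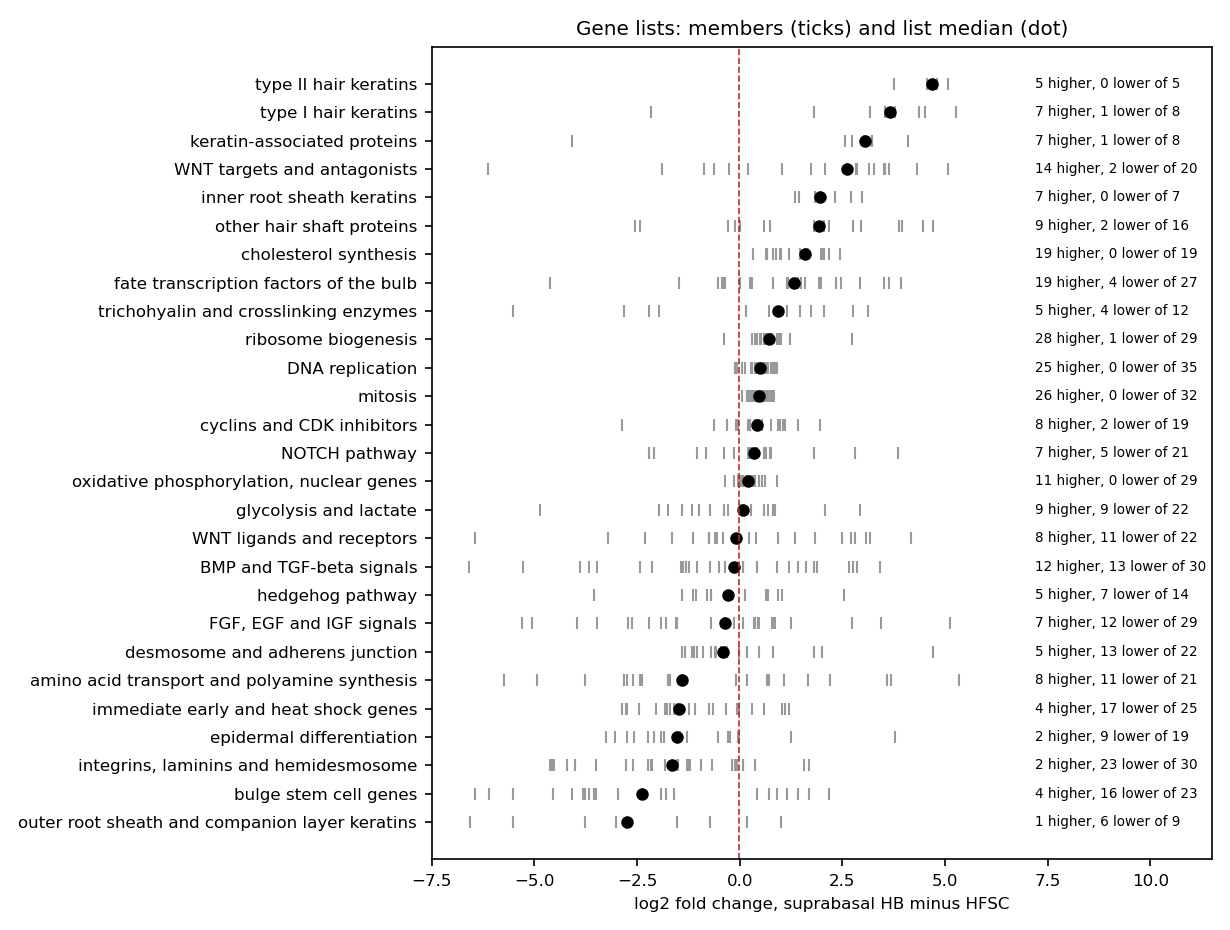
Log2 fold changes, suprabasal HB minus HFSC, of the tested members of each gene list, 1 tick a gene, with each list's median as a dot, the counts called at the right and, as the dashed line, the median of all genes (-0.01). Cholesterol synthesis lies wholly above the line, DNA replication and mitosis lie narrowly around 0.49 and 0.46, and glycolysis and WNT ligands and receptors straddle it.

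Pigment cell genes were among the largest rises. All 15 tested autosomal melanocyte markers rose, by 3.41 to 8.06 on the log2 scale, with a median of 6.92. Dct, a melanin synthesis enzyme gene, was at 27.7, 50.5 and 32.0 CPM in HFSC and 5209 and 5494 CPM in suprabasal HB (log2 7.19, SE 0.67, edgeR adjusted p = 3.4e-05). Oca2, a melanosome transporter gene, rose by 8.06 (1.45 to 2.88 CPM against 531 and 556), Tyrp1 by 7.66, and Sox10, the neural crest factor gene of melanocytes, by 7.12, from 0.576 to 1.2 CPM to 155 and 123 CPM. In basal HB the means were 419 CPM for Dct and 16.4 CPM for Sox10, between the 2 populations. Mitf, the master regulator of the lineage, rose by 4.63, and Ednrb, its endothelin receptor gene, by 4.72.

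Promoters of Tyr, the tyrosinase gene, and Trpm1 are shown because their windows hold the M-box core TCATGTG, a word chosen after the values were seen. It was in 4 of 14 windows of the melanocyte list (28.6%), those of Dct, Trpm1, Tyr and Tyrp1, beside 3.77% of all windows. The 250 bases before the start follow for Tyr (chr7:87493513-87493762, minus strand) and Trpm1 (chr7:64153585-64153834, plus strand), with the core in capitals, 22 and 142 bases before the start.
Tyr: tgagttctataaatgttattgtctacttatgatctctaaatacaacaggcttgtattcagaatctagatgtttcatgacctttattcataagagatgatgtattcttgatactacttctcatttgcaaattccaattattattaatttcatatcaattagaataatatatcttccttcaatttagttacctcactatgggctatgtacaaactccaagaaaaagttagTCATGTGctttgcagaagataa
Trpm1: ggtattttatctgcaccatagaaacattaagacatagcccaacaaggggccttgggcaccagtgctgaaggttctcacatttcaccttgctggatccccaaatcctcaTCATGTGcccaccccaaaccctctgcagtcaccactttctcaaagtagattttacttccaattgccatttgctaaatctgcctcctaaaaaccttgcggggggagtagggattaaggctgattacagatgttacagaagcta
Tyr was at 6.82, 14.1 and 7.42 CPM in HFSC and 956 and 1018 CPM in suprabasal HB (log2 6.71, SE 0.61), and Trpm1 at 9.65, 16.6 and 10.2 and at 1451 and 1479 CPM (log2 6.92, SE 0.63).

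The 12 largest rises among called genes of at least 10 CPM without overlap were Rps12, Gm20458, Fstl4, Foxd3, Oca2, Slc6a17, B3galt5, Slc45a2, Npy, Tyrp1, Mc1r and Pax3. Oca2, Slc45a2 and Tyrp1 are on the melanocyte list, and Mc1r, Pax3 and Foxd3 are genes of melanocytes or the neural crest. Mc1r, the melanocortin receptor gene, was at 1.05, 1.24 and 1.49 CPM in HFSC and 242 and 222 CPM in suprabasal HB (log2 7.52, SE 0.42). Fstl4 had 1 count or none in each HFSC library and stood at 19.2 and 20.9 CPM in suprabasal HB. Foxd3 had at most 4 counts in each HFSC library and 26.3 and 14.6 CPM in suprabasal HB (log2 8.27, and 9.94 without HFSC replicate 3), and Npy, a neuropeptide gene, rose by 7.66 (8.32 without HFSC replicate 2). Rps12, a ribosomal protein gene that every cell uses, is listed at 0 in all 3 HFSC libraries and at 292 and 391 CPM in suprabasal HB. An exact 0 for such a gene can be a failed estimate, and whether the HFSC libraries were prepared or counted in another way was not tested, so no fold is given. Gm20458, with 98.5% of its words shared, is listed at 0 in HFSC and at 12.5 and 12.8 CPM in suprabasal HB.

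The largest falls were spread over many functions. Dio3, which encodes a deiodinase that inactivates thyroid hormone, went from 197, 183 and 161 CPM to 1.13 and 0.783 CPM (log2 -7.54, SE 0.26), and Dhrs9, a retinol dehydrogenase gene, from 226, 228 and 212 CPM to 1.45 and 0.918 CPM (log2 -7.53, SE 0.32). Cntn2, a neural cell adhesion gene, fell by 8.35 (-7.74 and -9.10 without suprabasal HB replicates 1 and 2), Marc1, a molybdenum enzyme gene, by 7.67, and Upk1b and Sh2d6 had 1 to 3 counts in each suprabasal library against 30 to 38.4 and 15.6 to 27.9 CPM in HFSC. Ccl27b and Gm7324 are listed at 0 in suprabasal HB and at 30.7 to 57.8 and 25.1 to 33.9 CPM in HFSC, and they share 100% and 82.1% of their words, so these values are uncertain. Among genes of at least 100 CPM, Barx2, a homeobox gene, went from 272, 280 and 256 CPM to 2.47 and 1.61 CPM (log2 -7.03, SE 0.31). Ret, a receptor tyrosine kinase gene, fell by 6.07, the cytochrome gene Cyp2s1 by 6.38 and the peptide transporter gene Slc15a2 by 5.93. The largest rises and falls were ranked only among called genes without overlap between the populations, so their lack of overlap is no finding.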

How the data were processed

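Bulk RNA libraries of 4 sorted populations, 9 in all, were used at the level of expected counts, which the authors estimated per gene with RSEM 1.2.30 after alignment with Bowtie2 2.2.9 to mm10, per the submitters' processing notes. Strand and parameters are not given in the sources used here. TPM values were deposited by the authors beside the counts and were used for levels between genes and as an alternative. The 9 FPKM columns and the 9 columns of a table of the whole series were not used. Of 46517 gene rows 98.9% carried a GENCODE M21 identifier, from which autosomal protein-coding genes were taken.

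Expected counts were rounded and fitted in edgeR 4.0.16 (R 4.3.3) with filterByExpr, TMM scaling and 1 mean for each of the 4 populations over all 9 libraries, which left 5 residual degrees of freedom. The contrast was suprabasal HB minus HFSC, 2-sided, adjusted by Benjamini-Hochberg over 20491 genes, and the SE is the log2 fold change over the square root of F. Alternatives used DESeq2 1.42.0, limma 3.58.1 on TPM, other filters and scalings, the replicate block and each library left out.

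The members and gene lists were chosen with earlier results of these data known. Genes were named as the markers and sort markers, the 12 largest rises and falls of at least 10 CPM and of at least 100 CPM, and up to 4 members of each list in each direction, while other list members were named after their values were seen. The lists of contractile, retinoid and melanosome genes, the searches for M-box and sterol words and the printed promoters were also chosen after values were seen. A share of 25-base words above 20% marks genes whose counts could be split with similar transcripts. Deviations from the population means correlated at 0.014 and 0.05 for same-numbered libraries and at -0.05 to 0.04 for the others. With 2 suprabasal HB libraries the deviations mirror each other, so these values cannot decide whether numbers pair samples. Numbers were not taken to pair samples in the main fit.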

Additional observations from a re-analysis of the deposited data

How the results depend on the processing

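All 4091 higher and 4363 lower calls were recounted under each alternative, and no count moved by over 1.5 times. Counts ran from 3651 to 4712 higher and from 3347 to 4438 lower over the alternatives that kept all 5 libraries, and from 3579 to 4752 higher and 3224 to 3827 lower when 1 library was left out. The share of calls that were higher was 48.4% and reached 54.9% with TPM and no filter and 55.4% with a library left out. The median of all genes moved by at most 0.10 on the log2 scale. The replicate block gave 3651 higher and 4071 lower. Of 233 named genes, 215 kept their call and direction in every alternative that gave a value, and over 3487 pairs of gene and alternative 88 lost the call and none reversed. The 233 genes were mostly picked as called genes with large differences, so the stability of their calls was largely set by that choice. Population cannot be told apart from sex of the animals or depth, with 2 libraries on 1 side. A count of 0 allows up to 3 counts a library, so levels that low are uncertain.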

Other observations

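Contractile and matricellular genes, a list made after the values were seen, fell in 20 of 20 tested cases, with a median log2 fold change of -4.87. The 21 genes of the list summed to 14066 to 16424 CPM in HFSC, 6772 to 8742 in ORS, 4119 to 4881 in basal HB and 947 to 1159 in suprabasal HB. Acta2 and Tagln, smooth muscle actin and an actin-binding protein gene, fell by 5.36 and 5.77, Tagln with 63.5% of its words shared.

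Retinoid and thyroid hormone genes, also listed after the values were seen, split into 8 higher and 9 lower of 21. Aldh1a3, which makes retinoic acid, was at 17.6, 31.6 and 33.7 CPM in HFSC and 408 and 400 CPM in suprabasal HB (log2 3.87), and Stra6, a retinol transporter gene, rose by 3.06, while Dio3 and Dhrs9 fell. Of 21 melanosome and neural crest genes beyond the marker list, chosen in the same way, 19 rose and 2 fell, with a median of 6.75, and 1 fell without HFSC replicate 1 or 3 or suprabasal HB replicate 2.

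Rps12 stood at 0 in all 3 HFSC libraries, whereas suprabasal HB had 292 and 391 CPM, basal HB 238 and 282 CPM, and ORS 240 and 224 CPM. In all, 43 called genes had no count in HFSC, 29 of them with counts in all 4 ORS and basal HB libraries, and 62 had none in suprabasal HB. Whether HFSC libraries were prepared or counted in another way was not tested, so these zeros are given as listed and not as levels of expression.

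The 2 suprabasal HB libraries differed from each other in several genes and lists. Col1a1, a fibroblast collagen gene, was at 1209 CPM in replicate 1 and 396 CPM in replicate 2. Syt4, a synaptotagmin gene, was at 209 and 37.2 CPM.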
